A study of Mus musculus with 9 samples.

Results

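The Hsd3b genes of the mouse encode 3β-hydroxysteroid dehydrogenases, and all 7 listed copies (Hsd3b1 to Hsd3b7) were found by gene symbol among 27434 named genes in a table of 75794 features. They were selected on the comparison of their levels between the STAT5ca and control groups, with its values known. The table comes from polyadenylated RNA of liver nuclei of male CD1 mice, an outbred stock. In the STAT5ca group, 5 libraries came from mice injected in the tail vein with 2e11 genome copies of AAV8-STAT5ca, a hepatocyte-directed adeno-associated virus carrying constitutively active STAT5b, and killed 4 weeks (2 libraries) or 6 weeks (3 libraries) later. In the control group, 4 libraries came from mice given vehicle, 2 at each time. At death the mice of both groups were aged 11 to 12 weeks (earlier time) or 13 to 14 weeks (later time). The vehicle held no virus, so an effect of the virus and one of STAT5ca cannot be told apart, and the promoter driving the transgene is not given in the sources used here.

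Most enzymes of this family oxidise the hydroxyl group of a steroid and shift the neighbouring double bond, the step that turns pregnenolone into progesterone and dehydroepiandrosterone into androstenedione. In mice Hsd3b1 is the main form of adrenal gland and gonads, and Hsd3b6 is found in adult Leydig cells and the outer adrenal cortex. Hsd3b2 and Hsd3b3 are forms of liver and kidney, whereas Hsd3b4 of kidney and Hsd3b5 of male liver act mainly as reductases of ketosteroids. Hsd3b7 is a distant relative that takes part in bile acid synthesis in hepatocytes. Growth hormone, which acts on liver through STAT5b, controls many genes that differ between male and female liver, and Hsd3b5 is one of the classical male ones.

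The copies are close in sequence, which limits how well short reads tell them apart. The first 60 coding bases from the GENCODE transcripts of 6 copies are shown, with capitals at each base that differs from Hsd3b1.
Hsd3b1: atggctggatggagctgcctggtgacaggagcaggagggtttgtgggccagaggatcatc
Hsd3b6: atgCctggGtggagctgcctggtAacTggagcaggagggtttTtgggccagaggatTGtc
Hsd3b2: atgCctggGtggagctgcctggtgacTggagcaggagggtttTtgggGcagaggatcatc
Hsd3b3: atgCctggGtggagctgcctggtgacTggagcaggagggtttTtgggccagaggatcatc
Hsd3b5: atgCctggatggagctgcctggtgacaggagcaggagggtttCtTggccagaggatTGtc
Hsd3b4: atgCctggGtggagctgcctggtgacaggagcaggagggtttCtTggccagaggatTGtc
Within these 60 bases Hsd3b3 differed from Hsd3b1 at 4 positions, Hsd3b2 and Hsd3b5 at 5 each, Hsd3b4 at 6 and Hsd3b6 at 7. Over the whole coding sequence (1122 bases in each chromosome 3 copy and 1110 in Hsd3b7) the copies fell into 2 sets by identity. Hsd3b2, Hsd3b3 and Hsd3b6 were 94.4% to 95.1% identical to each other and 89.3% to 90.0% identical to Hsd3b1. Hsd3b4 and Hsd3b5 were 95.2% identical to each other and 79.8% to 82.7% identical to the other 4 copies of chromosome 3. Hsd3b7 shared 51.2% to 52.9% of its aligned bases with the other 6.

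**Figure D1:**
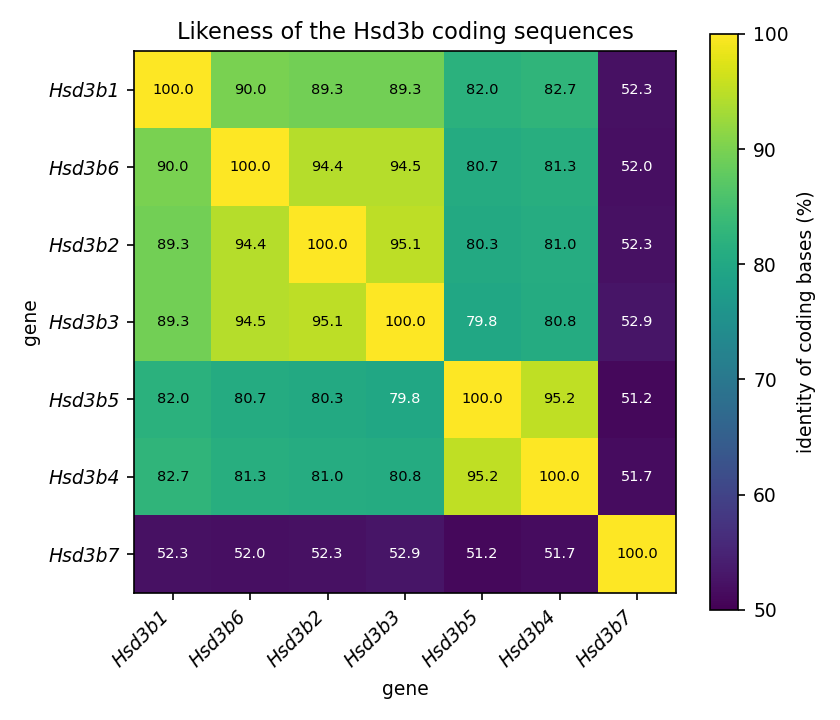
Identity of the coding bases (%) between each pair of Hsd3b genes after global alignment, from 51.2% (dark) to 100% on the diagonal (light). Hsd3b1, Hsd3b6, Hsd3b2 and Hsd3b3 form one block and Hsd3b5 with Hsd3b4 another, and Hsd3b7 stands apart.

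Sharing was also counted in stretches of 50 bases, a length chosen here because the read length is not given in the sources used here. Of the 50-base windows of the coding sequence, 35.8% of those of Hsd3b2, 34.0% of Hsd3b3, 26.2% of Hsd3b5 and 20.2% of Hsd3b6 occurred unchanged in another copy. The share was 3.73% for Hsd3b1 and 0% for Hsd3b7. The coding sequence of Hsd3b4 was 100% identical to that of its neighbour Gm10681. Reads from shared windows cannot be assigned to 1 copy by sequence, so the levels of Hsd3b2 and Hsd3b3 in particular are uncertain by an unknown amount, and coding reads of Hsd3b4 cannot be told from those of Gm10681.

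Hsd3b1, nearly undetected in control livers, was higher in STAT5ca livers, Hsd3b2 and Hsd3b5 were about 2-fold lower, and Hsd3b3, Hsd3b4, Hsd3b6 and Hsd3b7 did not pass the threshold. The authors deposited 1 mean RPKM (reads per kilobase of exons, scaled by library total) per gene and group, a fold change and an adjusted p from edgeR, with both times pooled. Values per library could be worked out only for a few faint features, so no spread between libraries can be given for the abundant copies. Since these levels chose the genes, their values are a description and not independent evidence. At an adjusted p under 0.05, 1 of the 7 genes was higher and 2 were lower in STAT5ca livers, and nothing is read from these counts. Over all named genes 3.87% were called higher and 1.92% lower. The median log2 fold in the authors' deposited table was -0.48 over the 7 genes and 0 over all named genes. Hsd3b4 enters the first at the authors' fitted value, and the median of the other 6 genes was -0.40.

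Hsd3b1 (chromosome 3, 98656117 to 98663717, mm9) averaged 38.9 RPKM in STAT5ca livers and 0.0681 RPKM in control livers. The authors' deposited table gives a 494-fold increase with an adjusted p of 9.20e-63. The control value could be traced to whole reads, since the table keeps 8 digits and the library totals can be read from its faintest features. For a gene length between 1400 and 2800 bases a single solution fitted, with a length of 1850 bases and 6 reads in all. Listed from the least to the most deeply sequenced control library, the reads were 1, 0, 3 and 2. At equal levels in the 5 libraries, the STAT5ca mean would correspond to about 5024 reads in all. The plain ratio of the RPKM values was 571, and the exact Poisson 95% interval of the 6 control reads (2.20 to 13.1) places it between 262 and 1556, covering counting error only. The gene stood at rank 1215 of all named genes by RPKM in STAT5ca livers and at rank 14758 in control livers.

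Hsd3b2 (chromosome 3, 98515030 to 98528466, mm9), the most abundant chromosome 3 copy in both groups, averaged 63.3 RPKM in STAT5ca livers and 121 RPKM in control livers. The authors' deposited table gives it as 2.01-fold lower, with an adjusted p of 0.00167. Hsd3b5 (chromosome 3, 98422559 to 98449457, mm9), the male liver form, averaged 38.2 RPKM in STAT5ca livers and 74.3 RPKM in control livers. It was 2.05-fold lower there too, at an adjusted p of 0.00493 in the authors' deposited table. The plain ratios of the RPKM values, STAT5ca over control, were 0.5222 for Hsd3b2 and 0.5145 for Hsd3b5, slightly less than a 2-fold fall. The fall of these 2 genes was thus of like size, although their coding sequences are 80.3% identical and belong to different sets. Hsd3b5 remained at about the level that Hsd3b1 reached in STAT5ca livers (38.2 RPKM for Hsd3b5 and 38.9 RPKM for Hsd3b1).

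Hsd3b3 (chromosome 3, 98545399 to 98567051, mm9) averaged 58.7 RPKM in STAT5ca livers and 70.3 RPKM in control livers and did not pass the threshold (1.24-fold lower by the authors' deposited table, adjusted p = 1). Its coding sequence is 95.1% identical to that of Hsd3b2, and 33.6% of the 50-base windows of each occur in the other, and how such reads were assigned is not given in the sources used here. Its part in the unequal values of the 2 genes was not tested. Hsd3b7 (chromosome 7, 134944123 to 134947316, mm9) was the most abundant member, with 512 RPKM in STAT5ca livers and 679 RPKM in control livers. It was 1.40-fold lower, with an adjusted p of 0.0939 in the authors' deposited table. For a repeat of the correction, p-values were worked back from the authors' adjusted edgeR p as upper bounds, taking their method as step-up (Benjamini-Hochberg). When these were corrected over features whose mean level reached 0.1 RPKM, Hsd3b7 passed (adjusted p = 0.0344). Of the named genes kept in that step 9.34% passed as higher and 5.62% as lower.

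The last 2 genes were faint in both groups. Hsd3b6 (chromosome 3, 98609427 to 98618366, mm9) stood at 0.384 RPKM in STAT5ca livers and 0.303 RPKM in control livers (adjusted p = 1, from the authors' deposited table). Hsd3b4 (chromosome 3, 98303003 to 98314490, mm9) was listed at 0 in STAT5ca livers and at 0.0115 RPKM in control livers, which a single read in 1 control library accounts for at a length of 1781 bases. At that length 3 reads would correspond to 0.0243 RPKM in the STAT5ca group and 0.0376 RPKM in the control group, so both groups lay under this limit and no fold is given. A difference in Hsd3b4 was not detectable in these values. Its coding sequence is also that of Gm10681, and the part of shared reads in its low level was not tested.

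**Figure D2:**
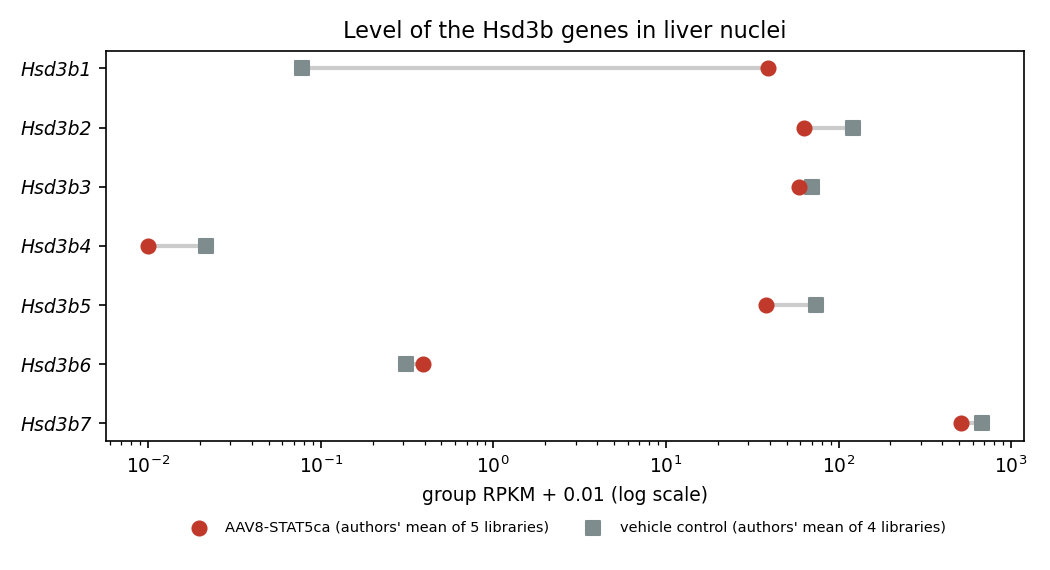
Mean RPKM of each Hsd3b gene per group as the authors deposited it, plotted as RPKM + 0.01 on a log axis, with red circles for AAV8-STAT5ca (5 libraries) and grey squares for vehicle control (4 libraries). Hsd3b1 stands at 38.9 RPKM in STAT5ca livers and 0.0681 RPKM in control livers, while the other abundant copies moved by about 2-fold or less, and the Hsd3b4 points rest on at most 1 read.

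The order of the copies on chromosome 3 also differed between the groups. By RPKM it ran Hsd3b2, Hsd3b3, Hsd3b1, Hsd3b5, Hsd3b6, Hsd3b4 in STAT5ca livers and Hsd3b2, Hsd3b5, Hsd3b3, Hsd3b6, Hsd3b1, Hsd3b4 in control livers. Without their values per library it cannot be said whether close neighbours in these orders differ, such as Hsd3b1 and Hsd3b5 in STAT5ca livers or Hsd3b5 and Hsd3b3 in control livers. Hsd3b6, at 0.384 RPKM in STAT5ca livers and 0.303 RPKM in control livers, stood far below the abundant copies in both groups. The sum of the 6 chromosome 3 copies was 199.6 RPKM in STAT5ca livers and 266 RPKM in control livers, a ratio of 0.750. Hsd3b1 made up 19.5% of that sum in STAT5ca livers and 0.0256% in control livers. Hsd3b2 made up 31.7% in STAT5ca livers and 45.6% in control livers, and Hsd3b5 19.1% in STAT5ca livers and 27.9% in control livers. The share of Hsd3b3 was 29.4% in STAT5ca livers and 26.4% in control livers. Hsd3b2, Hsd3b3 and Hsd3b5 together summed to 160.3 RPKM in STAT5ca livers and 265.8 RPKM in control livers, a difference of -105.5 RPKM beside that of 38.8 RPKM for Hsd3b1. The intervals that the table lists for Hsd3b2 and Hsd3b5 each hold a stretch of several kilobases, and which length entered their RPKM is not given in the sources used here, so levels set between copies carry that uncertainty.

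**Figure D3:**
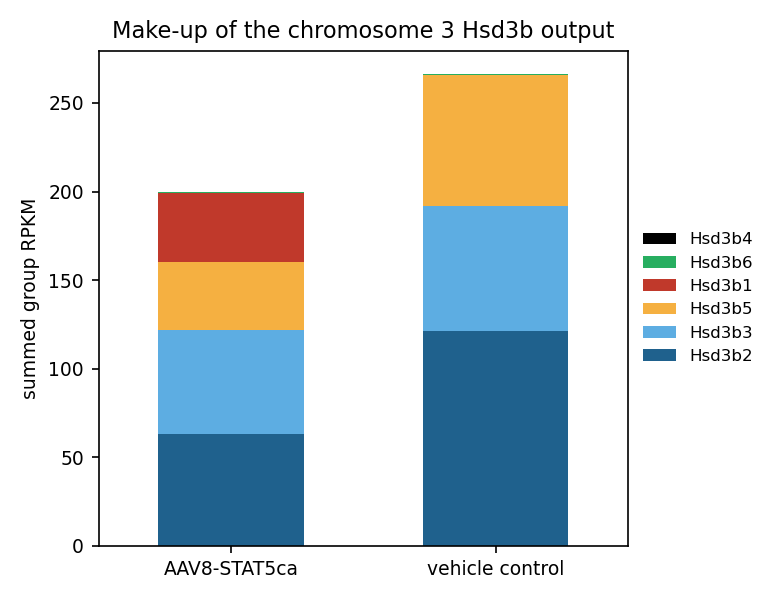
Summed RPKM of the 6 chromosome 3 Hsd3b genes, stacked by gene, in AAV8-STAT5ca (left) and vehicle control livers (right). The total was 199.6 RPKM in STAT5ca livers and 266 RPKM in control livers, and the Hsd3b1 layer is visible in STAT5ca livers alone.

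The 6 copies lie in a row over 360.7 kb of chromosome 3, all on the minus strand in the GENCODE annotation, with Hsd3b4 at one end and Hsd3b1 at the other. Hsd3b1 lies 37.8 kb beyond Hsd3b6, its nearest family member, and 14.7 kb before Hao2, which encodes a peroxisomal oxidase of hydroxy acids. Hao2 (chromosome 3, 98678442 to 98697153, mm9) averaged 16.7 RPKM in STAT5ca livers and 0.133 RPKM in control livers (113-fold higher by the authors' deposited table, adjusted p = 8.76e-37). Between Hsd3b1 and Hao2 the table lists 3 long noncoding RNA (lncRNA) features, of which 2 were listed at 0 in both groups. The other, nc_inter_c3_36565, held 17 reads in the STAT5ca libraries (6, 1, 3, 3 and 4 from the least to the most deeply sequenced) and 0 in the 4 control libraries. It was therefore at least 3.78-fold higher against a limit of 3 reads over the control group (adjusted p = 0.0282, from the authors' deposited table). Every STAT5ca library held at least 1 read of it.

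Lower levels were seen in the stretch that holds Hsd3b5, Hsd3b2 and Hsd3b3. The feature nc_intra_c3_2638, whose 4 intervals lie before and among those listed for Hsd3b5, had 0.171 RPKM in STAT5ca livers and 0.423 RPKM in control livers (2.57-fold lower by the authors' deposited table, adjusted p = 0.000433). The feature nc_intra_c3_2640, which covers the gaps between Hsd3b2, Hsd3b3 and Hsd3b6, had 1.17 RPKM in STAT5ca livers and 3.22 RPKM in control livers (2.87-fold lower by the authors' deposited table, adjusted p = 0.00315). Intervals of both end at the base next to a listed Hsd3b interval, and whether their reads come from separate transcripts or from unspliced Hsd3b RNA was not tested. Within 200 kb of the cluster 1 of 22 lncRNA features was called higher and 2 lower, against 1.47% and 1.25% of all lncRNA features, and 10 of the 22 were listed at 0 in both groups.

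Of the 7 other named genes within 200 kb, 2 were called higher and 0 lower, against 3.87% and 1.92% of all named genes. Nothing is read from so small a count. Besides Hao2 this was Phgdh, an enzyme of serine synthesis, with 0.349 RPKM in STAT5ca livers and 0.0536 RPKM in control livers (adjusted p = 0.0213, from the authors' deposited table). Zfp697 stood at 0.455 RPKM in STAT5ca livers and 0.404 RPKM in control livers. The Hsd3b-like genes Gm10681 and Gm4450, 100% and 99.6% identical to Hsd3b4 in coding sequence, were listed at 0 in STAT5ca livers, and in control livers Gm10681 at 0.0125 RPKM and Gm4450 at 0.0160 RPKM. The gene 5730437C11Rik was listed at 0 in both groups.

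**Figure D4:**
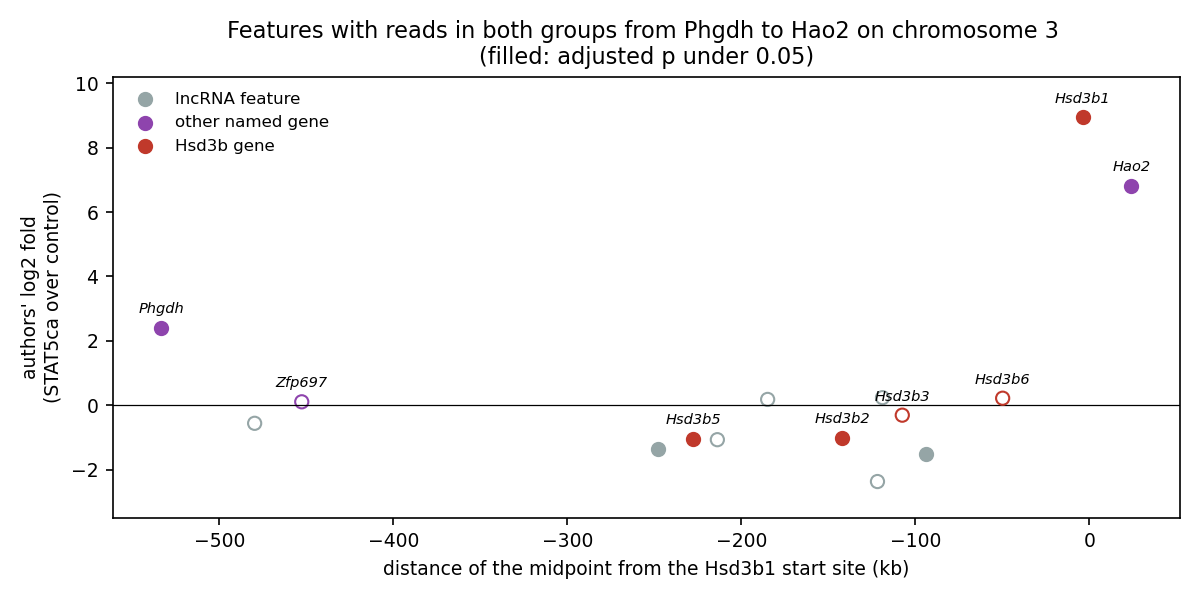
Authors' log2 fold (STAT5ca over control) of the Hsd3b genes (red), other named genes (purple) and lncRNA features (grey) from Phgdh to Hao2 against the distance of each midpoint from the Hsd3b1 start site in kb, for the features above 0 in both groups (Hsd3b4 is not among them). Filled points had an adjusted p under 0.05, and Hsd3b1 with Hao2 at the right end stands far above the copies to the left, which lie between -1.04 and 0.22.

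The single chromosome 7 member has other neighbours. Of the 23 named genes within 200 kb of Hsd3b7, 0 were called higher and 1 lower, and of the 32 lncRNA features 0 were called in either direction. Shares called higher and lower were 3.87% and 1.92% over all named genes and 1.47% and 1.25% over all lncRNA features. Setd1a, a histone methyltransferase gene 0.49 kb from Hsd3b7, had 21.6 RPKM in STAT5ca livers and 27.5 RPKM in control livers (adjusted p = 0.217, from the authors' deposited table). Log2 folds of those above 0 in both groups that did not pass lay, in the authors' deposited table, between -1.40 for 1700120K04Rik and 0.85 for Pycard. Mir762 had 0.187 RPKM in STAT5ca livers and was listed at 0 in control livers, so no fold is given. Ctf2 was listed at 0 in both groups.

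Sequences around the start sites were taken from RefSeq (build GRCm38.p6, not the mm9 of the table), which held a promoter of 250 bases before and 50 after a start site for all 7 genes. The promoters of the 4 chromosome 3 copies averaging 1 RPKM or more over the groups are shown because together these copies make up nearly all of the cluster's RNA. Hsd3b1 meets this limit through the STAT5ca group alone (38.9 RPKM, against 0.0681 RPKM in control livers). Capitals mark the match to TTCNNNGAA, the core motif bound by STAT5, in Hsd3b1. In the other 3 they mark runs of at least 15 bases found in another of these promoters.
Hsd3b1, chr3:98859745-98860044, minus strand: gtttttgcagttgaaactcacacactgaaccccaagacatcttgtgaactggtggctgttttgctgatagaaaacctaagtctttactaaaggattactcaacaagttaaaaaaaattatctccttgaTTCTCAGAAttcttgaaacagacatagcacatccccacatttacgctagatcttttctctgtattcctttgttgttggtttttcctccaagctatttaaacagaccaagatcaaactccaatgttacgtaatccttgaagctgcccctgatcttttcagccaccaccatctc
Hsd3b2, chr3:98724494-98724793, minus strand: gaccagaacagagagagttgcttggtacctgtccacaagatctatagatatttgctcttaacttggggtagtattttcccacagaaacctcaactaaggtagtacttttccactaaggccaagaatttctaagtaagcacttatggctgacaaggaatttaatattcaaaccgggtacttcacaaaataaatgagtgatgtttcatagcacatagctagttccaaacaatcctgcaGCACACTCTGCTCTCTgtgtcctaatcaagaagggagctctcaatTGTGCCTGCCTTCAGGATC
Hsd3b3, chr3:98763079-98763378, minus strand: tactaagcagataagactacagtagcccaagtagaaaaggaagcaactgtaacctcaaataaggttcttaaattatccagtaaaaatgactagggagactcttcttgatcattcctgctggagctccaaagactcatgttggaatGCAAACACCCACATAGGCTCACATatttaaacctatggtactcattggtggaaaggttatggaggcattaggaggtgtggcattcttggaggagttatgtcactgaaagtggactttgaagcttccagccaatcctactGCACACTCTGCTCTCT
Hsd3b5, chr3:98645485-98645784, minus strand: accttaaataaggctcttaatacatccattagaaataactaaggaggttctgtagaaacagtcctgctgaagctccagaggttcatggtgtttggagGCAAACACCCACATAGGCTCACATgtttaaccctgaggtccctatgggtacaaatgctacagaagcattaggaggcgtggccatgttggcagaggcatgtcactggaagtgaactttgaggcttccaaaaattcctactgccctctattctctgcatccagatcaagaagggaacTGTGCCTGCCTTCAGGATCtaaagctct
The promoters of Hsd3b3 (the first of its 2 listed start sites) and Hsd3b5 aligned over 250 columns at 75.2% identity, with a longest shared run of 24 bases. Those of Hsd3b2 and Hsd3b5 shared a run of 19 bases that begins 22 bases after the start in Hsd3b5 and 31 after it in Hsd3b2. The Hsd3b1 promoter shared no run of 15 bases with the other 3. TTCNNNGAA, which reads the same on both strands, was found in the promoters of Hsd3b1 (first base at -122, counted from 0 at the start site) and Hsd3b7 (at -21) and in 8.30% of 32851 mouse promoters of the same length. The wider form, with 4 bases between TTC and GAA, was found once each in Hsd3b5 and Hsd3b6 and in 6.95% of all promoters. CAAAGTCCA, searched on both strands as a form of the HNF4 motif, was found at both start sites of Hsd3b3 and in 0.475% of promoters, and ATCGAT, a sequence bound by HNF6 and CUX2, in none of the 7 genes and in 0.925% of promoters. These matches describe letters in a window and were not tested as binding sites.

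Among other genes that make or use the same steroids, 3 lists held no gene that passed the threshold on the authors' edgeR p. Over all named genes 3.87% were called higher and 1.92% lower, so nothing is read from counts of 0 in lists this short. Of 20 steroid dehydrogenase genes of other families, 0 were called higher and 0 lower, with a median log2 fold of 0.05 in the authors' deposited table. Of the 10 genes upstream of the 3β-hydroxysteroid dehydrogenase step 0 were called in either direction (median -0.11). The 4 downstream likewise held 0 called (median 0), but 2 of them, Cyp11b1 and Cyp19a1, were listed at 0 in both groups. Only 1 of the 4, Cyp21a1, averaged 1 RPKM or more, so the count and median of this list rest largely on genes at or near 0. Cyp11a1, which makes pregnenolone from cholesterol, had 0.0641 RPKM in STAT5ca livers and 0.0196 RPKM in control livers (adjusted p = 0.884, from the authors' deposited table). Cyp17a1, which makes dehydroepiandrosterone, had 0.839 RPKM in STAT5ca livers and 0.675 RPKM in control livers (adjusted p = 1, from the authors' deposited table). Cyp21a1, a hydroxylase acting on progesterone, had 7.71 RPKM in STAT5ca livers and 8.62 RPKM in control livers. In STAT5ca livers the RNA of Cyp11a1 and Cyp17a1, whose enzymes make the classical substrates of Hsd3b1, thus averaged under 1 RPKM. These are RNA levels, and the supply of such substrates to the liver was not tested.

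Of 13 reductases of steroids, 2 were called higher and 1 lower (median log2 fold 0.18), against 3.87% and 1.92% of all named genes. Srd5a1, a reductase that inactivates or converts testosterone and progesterone, had 6.15 RPKM in STAT5ca livers and 17.2 RPKM in control livers (2.94-fold lower by the authors' deposited table, adjusted p = 1.82e-07). The aldo-keto reductase gene Akr1c20 had 44.7 RPKM in STAT5ca livers and 15.8 RPKM in control livers (2.70-fold higher by the authors' deposited table, adjusted p = 3.07e-09). Akr1c21, named after its value was seen, had 1.53 RPKM in STAT5ca livers and 0.110 RPKM in control livers (12.4-fold higher by the authors' deposited table, adjusted p = 4.32e-08). Of 6 steroid hormone receptor genes, 3 were called higher and 0 lower (median log2 fold 1.19), against the same shares of all named genes. That median includes the authors' fitted values of Pgr and Esr2, both listed at 0 in control livers. Among the 3 receptors averaging 1 RPKM or more, 1 was called higher and the median was 0.53. Esr1, the main estrogen receptor of liver, had 5.91 RPKM in STAT5ca livers and 2.41 RPKM in control livers (2.35-fold higher by the authors' deposited table, adjusted p = 3.11e-05). The fainter Pgr, named after its value was seen, had 0.517 RPKM in STAT5ca livers and was listed at 0 in control livers, so no fold is given (adjusted p = 1.87e-11, from the authors' deposited table).

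Around Hsd3b7, 0 of 16 bile acid genes were called higher and 1 lower, with a median log2 fold of -0.14. Shares over all named genes were 3.87% higher and 1.92% lower, and nothing is read from these counts. The gene called was Acox2, an oxidase that shortens the side chain of bile acid precursors, with 34.7 RPKM in STAT5ca livers and 55.1 RPKM in control livers (1.67-fold lower by the authors' deposited table, adjusted p = 0.00289). The hydroxylases that feed Hsd3b7, Cyp7a1 and Cyp7b1, had 16.8 and 55.8 RPKM in STAT5ca livers, against 10.9 and 76.2 RPKM in control livers, and neither passed the threshold. Akr1d1, which acts on the product of Hsd3b7, had 19.6 RPKM in STAT5ca livers and 13.9 RPKM in control livers (adjusted p = 0.425, from the authors' deposited table).

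**Figure D5:**
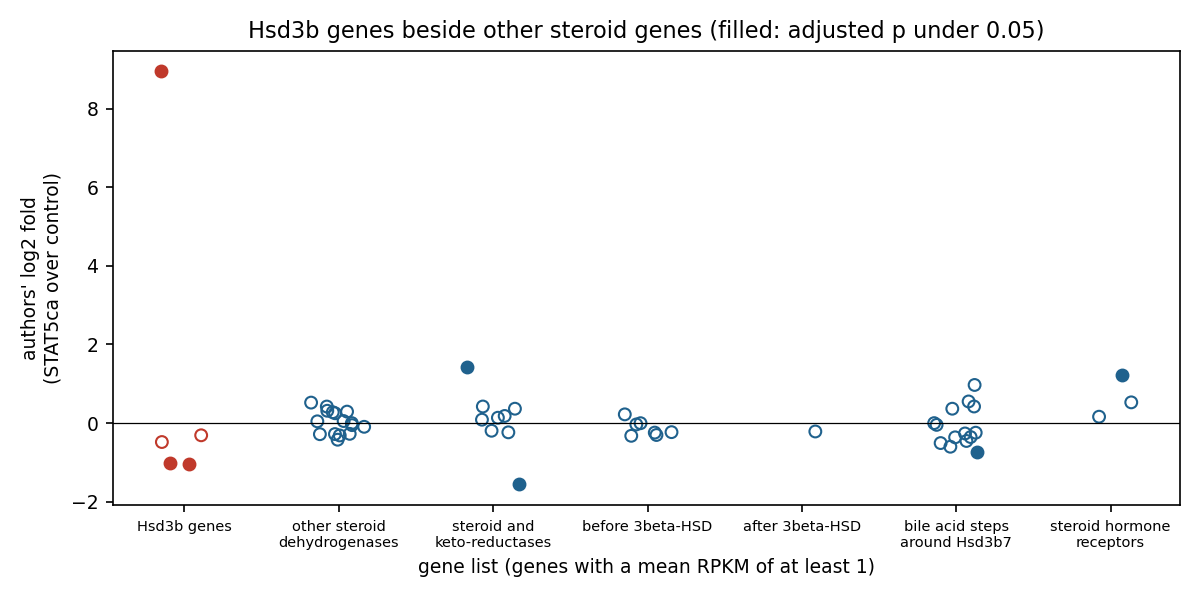
Authors' log2 fold (STAT5ca over control) of the Hsd3b genes (red) and of 6 lists of other steroid and bile acid genes (blue), limited to genes averaging 1 RPKM or more over the groups, with filled points at an adjusted p under 0.05 and sideways jitter for legibility. Of the points drawn, Hsd3b1 at 8.95 is the highest, passing the 1 RPKM limit through the STAT5ca group alone, and those of the other lists lie between -1.56 and 1.43. The limit leaves out fainter genes called higher, among them Akr1c21 (log2 fold 3.63) and Pgr, which was listed at 0 in control livers.

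Marker genes were read beside these results. Over all named genes 3.87% were called higher and 1.92% lower, and nothing is read from the short counts of each list. Hepatocyte markers were abundant, with Alb at 14666 RPKM in STAT5ca livers and 4563 RPKM in control livers. Among the 18, 2 were called higher (Alb and Trf) and 1 lower (Cyp2e1), and the median log2 fold was -0.06. Of 11 markers of adrenal and gonadal steroid cells 0 were called, and 3 (Cyp11b1, Mc2r and Lhcgr) were listed at 0 in both groups. The sum of these 11 was 31.2 RPKM in STAT5ca livers and 36.2 RPKM in control livers, carried by Insl3, Fdx1 and Cyp21a1. Of 8 kidney tubule markers 0 were called, 4 were listed at 0 in both groups, and they summed to 0.0581 RPKM in STAT5ca livers and 0.0423 RPKM in control livers. Kupffer cell and macrophage markers summed to 601 RPKM in STAT5ca livers and 343 RPKM in control livers (2 of 11 called higher). Endothelial markers summed to 336 RPKM in STAT5ca livers and 469 RPKM in control livers (3 of 10 lower). Stellate cell markers summed to 182 RPKM in STAT5ca livers and 329 RPKM in control livers (3 of 10 lower), of which Ecm1 alone had 54.2 and 140 RPKM. Median log2 folds of these lists were 0.66, -0.49 and -0.55. Cholangiocyte markers summed to 76.4 RPKM in STAT5ca livers and 16.95 RPKM in control livers, most of it Spp1 (1 of 7 higher and 1 lower). None of the Kupffer, endothelial, stellate or cholangiocyte markers was at 0 in both groups, and the part of such shifts in the Hsd3b values was not tested. In bulk liver, fewer cells of a type and less RNA per cell cannot be told apart.

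With 2 values per gene, likeness can be given only as a distance on the log2(RPKM + 0.1) plane of the 2 groups. Among the 3 nearest to Hsd3b1 were Cyp3a41b (distance 0.57) and A2m (0.87). Nearest to Hsd3b5 were Leng8 (0.06), Gmppa (0.12) and Bgn (0.13), and nearest to Hsd3b7 were Rbp4 (0.13), Echdc2 (0.14) and Ftcd (0.16). Cyp3a41b, a cytochrome P450 gene, had 27.3 RPKM in STAT5ca livers and 0.0399 RPKM in control livers. The distances rest on 2 group means and describe level and fold alone.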

How the data were processed

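Per the labels' protocols, nuclei were isolated from frozen liver, polyadenylated RNA was selected and directional libraries were made. Per the submitters' processing notes, the authors used the mm9 build and the tools STAR, featureCounts and edgeR, with no version given. The deposited RPKM values, 1 for each feature in each group, refer to collapsed exons per the file headers. The authors also deposited a signed fold, a score above 1 for STAT5ca over control and below -1 for the reverse, and an adjusted p-value from edgeR. Whether time entered their fit, and how reads shared by copies were counted, is not given in the sources used here. Printed log2 folds are the log2 of the authors' fold with its sign.

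No test was run here: the table holds group values, and reads per library could be recovered for a few faint features only, so the spread between libraries enters the calls only through the authors' adjusted p (threshold 0.05). The sample titles number the males, 1 per library, so that spread is between animals. The members and lists were chosen with earlier results of these data known. Besides the 7 genes, the rule takes all named genes within 200 kb. Those of chromosome 7 that were neither called nor adjacent are given by their range where above 0 in both groups. From each steroid list it names called genes averaging 1 RPKM or more, at most 4, and the enzymes just before or after the family. It also names the 3 genes nearest in level. Some genes that the rule takes are not reported here.

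Library totals were recovered from lncRNA features of 1 interval that hold 1 read in 1 library, as 11823873 to 14863490 reads in STAT5ca and 9489045 to 13144589 in control libraries. Libraries are ordered by these totals, since the table does not tie a total to a sample. Whole reads per library are given only where 1 solution fitted the 8 digits of the table, for Hsd3b1 with 0.025 solutions expected from rounding alone. The recovery of totals, and of reads at a known length, was tested on simulated data. The joint search over length and reads, used for Hsd3b1 and Hsd3b4, was not. Hsd3b6 had 16 solutions and is not resolved. Intervals cover counting error only. Coding sequences came from GENCODE (GRCm38) and were aligned with Biopython 1.88 (Python 3.11.15). Coordinates of genes are those of the table, and those of promoters belong to GRCm38.p6.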

Additional observations from a re-analysis of the deposited data

How the results depend on the processing

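The counts of Hsd3b genes called (1 higher, 2 lower) were the same with the threshold on adjusted p at 0.01, with folds under 2 left out and with genes averaging under 0.1 or 1 RPKM left out. Hsd3b1 passed these RPKM limits through the STAT5ca group alone (38.9 RPKM, against 0.0681 RPKM in control livers). The RPKM limits thus could not change the higher count. By the authors' folds Hsd3b2 (2.01) and Hsd3b5 (2.05) passed the limit of 2 narrowly. By their RPKM ratios of STAT5ca over control (0.5222 and 0.5145) they would not have passed it. When the correction was repeated, with p-values worked back from the adjusted ones, on features averaging 0.1 RPKM or more, the lower count was 3, Hsd3b7 being the addition. The log2 fold of Hsd3b1, 8.95 in the authors' deposited table, was 8.96, 7.86 and 5.22 as a ratio of RPKM with pseudocounts of 0.01, 0.1 and 1. At a pseudocount of 0.1 it was 7.77 when centred on the median gene and 7.82 when rescaled without the 100 most abundant genes. Hsd3b4 rests on 1 read, and its ratio was not read. The other 5 genes kept their direction and moved by less than 1.5-fold under these settings, and the ratio of the summed chromosome 3 RPKM lay between 0.729 and 0.940, the highest without Hsd3b2. In the steroid, bile acid and marker lists 10 of 78 recounts moved by more than 1.5 times, all to smaller counts. No paired analysis was possible because the table holds group means and no value with a replicate number, and leaving out a library could not be run for the same reason. Levels under about 3 reads, such as Hsd3b4, are too faint to compare here.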
